A study of Homo sapiens with 4 samples.

Results

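The genes described here are 45 members of the interferon system, chosen by name for their known roles, with earlier results of these data known. Of the 61806 genes in the deposited table, 44 carry a listed symbol, and RIGI was found by its gene ID (ENSG00000107201) under its older symbol DDX58. The RNA came from JJ012, an established human chondrosarcoma line labelled wild type, and bulk libraries were made from untreated cells (n = 2) and from cells given 10 µM Antcin K, a triterpenoid of the fungus Antrodia cinnamomea, for 24 h (n = 2). All 4 libraries are from this single line, grown with serum, the labels name no vehicle for the untreated cells, and separate cultures are not stated for the samples within a group. Gene p-values here thus reflect the spread among the 4 samples alone, which may be technical.

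Type I interferons are secreted proteins that bind a receptor made of the IFNAR1 and IFNAR2 chains. The receptor's kinases JAK1 and TYK2 phosphorylate STAT proteins, and STAT2, a STAT partner and IRF9 form a complex that binds the interferon-stimulated response element in the promoters of antiviral genes. Interferon production is switched on by sensors of foreign nucleic acid such as CGAS, RIGI and IFIH1, through adaptors such as STING1 and factors such as IRF3 and IRF7. Many of these genes also keep a basal level in cells that have met no virus, and tumour lines differ in which parts of the pathway they express.

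The binding element itself can be seen ahead of many of these genes. RefSeq promoter windows on GRCh38.p14, running from 250 bases before to 50 bases after a start site, were at hand for 31 of the 45 genes. The letters GAAANNGAAA, the core of the interferon-stimulated response element, stood on either strand in at least 1 window of 20 of these 31 genes (64.5%), against 1195 of 27305 genes overall (4.38%), with overlapping matches allowed. Among antiviral effector genes 19 of 23 had a match, while the count was 0 of 4 for receptor, kinase and STAT genes and 0 of 2 for IRF genes. The palindrome TTCNNNGAA, the core of the gamma-activated site, stood in the windows of 10 of 31 genes (32.3%, against 9.38% overall). A match describes the letters only and is not a shown binding site.

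The stretches below come from the 6 genes that are among the 12 with the lowest p in the comparison of treatments and that hold GAAANNGAAA ahead of the start site. They are shown because the same element stands before genes with higher and with lower means after Antcin K. Each is written 5′ to 3′ on the strand of its gene, and capitals mark the element or its reverse complement. The IFI44L stretch is chr1:78620244-78620424 (plus strand), that of GBP1 chr1:89065286-89065375 (minus), that of ISG15 chr1:1013344-1013439 (plus), that of ISG20 chr15:88638907-88638996 (plus), that of IFI27 chr14:94110588-94110690 (plus) and that of BST2 chr19:17405705-17405800 (minus).
IFI44L: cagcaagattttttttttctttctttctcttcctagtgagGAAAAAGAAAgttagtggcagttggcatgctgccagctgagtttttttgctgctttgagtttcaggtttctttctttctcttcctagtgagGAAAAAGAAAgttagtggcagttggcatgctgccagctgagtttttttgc
GBP1: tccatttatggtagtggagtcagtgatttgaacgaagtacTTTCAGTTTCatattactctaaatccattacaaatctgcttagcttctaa
ISG15: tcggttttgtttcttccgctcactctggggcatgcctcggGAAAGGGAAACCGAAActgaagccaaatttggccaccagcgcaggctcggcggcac
ISG20: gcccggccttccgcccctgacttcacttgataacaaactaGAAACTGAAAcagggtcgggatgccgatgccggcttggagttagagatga
IFI27: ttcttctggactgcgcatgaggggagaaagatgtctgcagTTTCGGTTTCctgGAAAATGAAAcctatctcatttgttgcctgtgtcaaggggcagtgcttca
BST2: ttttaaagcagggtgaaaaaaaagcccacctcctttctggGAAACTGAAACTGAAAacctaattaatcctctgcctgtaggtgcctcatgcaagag
In ISG15 and BST2 a pair of matches overlaps, so that 3 GAAA blocks follow each other. In IFI44L the element occurs in 2 places 91 bases apart, within a run of 85 identical bases that is repeated in tandem. Of the first 4 genes the mean was lower after Antcin K and of the last pair higher. These genes were picked for holding the element, so they cannot show whether its presence goes with a direction. Over all tested members with a window, 9 of the 13 with a higher mean and 10 of the 15 with a lower mean held it.

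Library totals ran from 16911257 to 26270686 counted fragments. The mitochondrially encoded share of counts was 26.0% in untreated replicate 1, 12.9% in untreated replicate 2, 13.5% in Antcin K replicate 1 and 19.3% in Antcin K replicate 2. Of 10 cartilage markers, SOX9, a chondrocyte transcription factor, had 996 counts over the 4 libraries, 563 of them in untreated replicate 1. COL2A1, the type II collagen gene, had 0 counts and ACAN, the aggrecan gene, had 5. Of 11 immune cell markers, PTPRC (CD45), LYZ and CLEC4C had 0 counts, and the list's summed CPM (counts divided by library sizes that TMM, a scaling on the bulk of genes, had adjusted) lay at 24.7 and 37.4 untreated and at 17.0 and 20.4 after Antcin K, most of it from CSF1R. CD3D and CD3E, which encode chains of the T cell receptor complex, had 280 and 283 counts over the 4 libraries. CD3D measured 1.58 and 3.92 CPM in the untreated pair, and 4.26 and 4.54 CPM in the treated pair. This was opposite in direction to the immune sum, and CD3E overlapped between groups. The cartilage markers' summed CPM lay at 28.0 and 12.8 untreated and at 8.01 and 13.7 after Antcin K, so it overlapped between groups. SOX9, which made up most of this sum, overlapped too. Of the 3 other cartilage markers that passed the count filter, COL11A1 and SOX5 were lower in both treated libraries and SOX6 was higher in both. COL11A1 measured 5.27 and 2.86 CPM in the untreated pair, and 1.16 and 1.91 CPM in the treated pair. SOX5 and SOX6 had 53 and 33 counts over the 4 libraries.

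By deposited FPKM (fragments scaled by exonic length and library total) of the 45 genes, averaged over the 4 libraries, 9 genes stood at 10 or above, 10 between 1 and 10, and 26 under 1. The median of the 39 genes that passed the count filter was 0.868 FPKM, below the 1.82 FPKM of all tested genes. The first 4 genes in the order, ISG15, IFITM3, IFITM2 and IFITM1, made up 73.3% of the members' summed mean FPKM. This order and the FPKM classes depend on the exonic length used, 867 bases for ISG15 and 2844 for IFITM3. By counts over the 4 libraries IFITM3, at 41776, exceeded ISG15, at 15715. ISG15 encodes a ubiquitin-like protein that is joined to other proteins, and stood at 241 and 260 FPKM untreated and 195 and 170 FPKM after Antcin K. This placed it above 98.7% of all tested genes. IFITM3, a membrane protein gene that restricts virus entry, stood at 197 and 187 FPKM untreated and 158 and 161 FPKM after Antcin K. ISG15 and IFITM3 exceeded the next gene in the order, IFITM2, in every library. IRF3, STING1 and JAK1 followed among the signalling genes, with means of 54.2, 16.6 and 13.9 FPKM. The libraries of IRF3 lay above those of the other pair, which overlapped, as did those of neighbours in the order from IFITM2 to BST2.

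**Figure D1:**
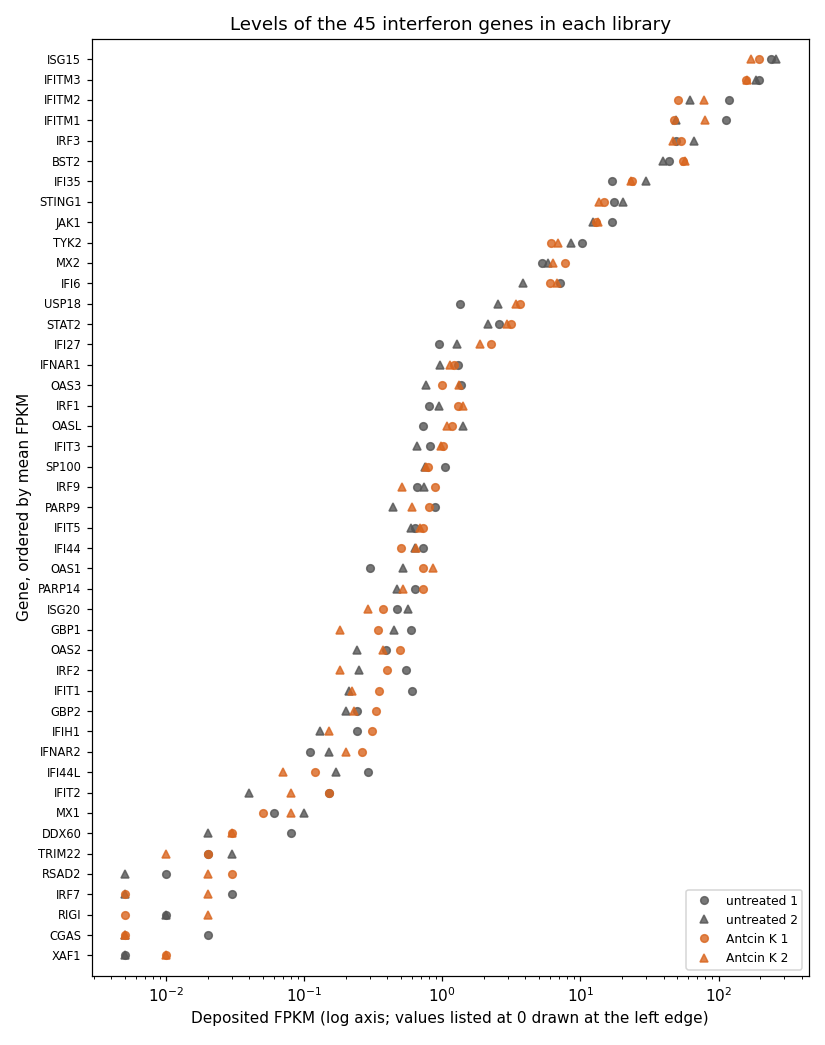
Deposited FPKM on a log axis for each of the 45 genes, ordered by mean, with 1 point per library (grey untreated, orange Antcin K, circle replicate 1, triangle replicate 2). ISG15 and IFITM3 lie to the far right, while XAF1, CGAS, RIGI, IRF7, RSAD2 and TRIM22 lie at or near 0.

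At the other end, 6 genes did not pass the count filter, and each had few counts in both groups. XAF1, which encodes a partner of the apoptosis inhibitor XIAP, had 0 and 0 counts in the untreated pair, and 1 and 1 in the treated pair. CGAS, the DNA sensor that makes the ligand of STING1, had 2 and 0 counts in the untreated pair, and 0 and 0 in the treated pair, while STING1 itself had 6628 counts over the 4 libraries. IRF7, the factor that amplifies interferon production, had 2, 0, 0 and 1 counts in the same order of libraries. RSAD2, the viperin gene, had 1, 0, 4 and 2 counts, and RIGI had 4, 1, 0 and 4. TRIM22, a ubiquitin ligase gene just under the filter, had 8, 7, 4 and 3 counts. A library with 0 counts still allows up to 3, for counting error only. At the lowest depth, that of Antcin K replicate 2, 3 counts correspond to 0.0425 FPKM for CGAS, 0.0679 FPKM for IRF7 and 0.0268 FPKM for XAF1. IRF7 and XAF1 had 1 count each in that library, so for their libraries with 0 counts these values are upper limits. The interferon genes themselves were as low, since the 10 ligand genes examined had 0 to 2 counts each over the 4 libraries. IFIT2 and DDX60, with 39 and 60 counts over the 4 libraries, were the members with the fewest counts that passed.

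Some copies within a gene family stood far apart and others did not. MX2 and MX1 encode dynamin-like antiviral GTPases. Per exonic length, counts of MX2 exceeded those of MX1 by 96.3-fold and 56.4-fold in the untreated pair, and by 152-fold and 77.4-fold in the treated pair. MX1 had 26, 35, 19 and 25 counts, so its own counting error is large, yet the order was the same in every library. Among the oligoadenylate synthetase genes, whose products activate RNase L, OASL and OAS3 had means of 1.10 and 1.11 FPKM and did not separate. IFIT3 stood above IFIT1 in every library, at 0.82 and 0.66 FPKM untreated and 1.01 and 0.98 FPKM after Antcin K, against 0.60 and 0.21 and then 0.35 and 0.22 FPKM for IFIT1.

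Treated and untreated cells were then compared to see which of these transcripts differed after exposure to the compound. Of the 39 tested genes, 20 had a higher and 19 a lower mean, with a median log2 fold change of 0.02 against -0.05 over all 14717 tested genes. By edgeR's quasi-likelihood test with Benjamini-Hochberg adjustment 0 of the 39 were called at an adjusted p under 0.05, as were 0.0% of all genes, and their adjusted p ran from 0.369 to 0.988. At an unadjusted p under 0.05 there were 2 higher and 3 lower members, or 5.13% and 7.69% of those tested, against 4.76% and 7.61% of all genes. DESeq2 called 0 of the 37 members to which it gave an adjusted p, 4 of the 39 had an unadjusted p under 0.05 (10.3%, the same share as over all genes), and it called 0.399% of all genes. Limma voom called 0 of the 39 and 0.0% of all genes, with 6 members (15.4%) at an unadjusted p under 0.05, against 12.1% of all genes. With no count filter edgeR called 0 of all 45 members and 0.723% of the genes. The members' median absolute log2 fold change was 0.319, and that of all genes 0.345. These are bulk libraries, so a change in the number of expressing cells and a change in RNA per cell cannot be told apart.

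**Figure D2:**
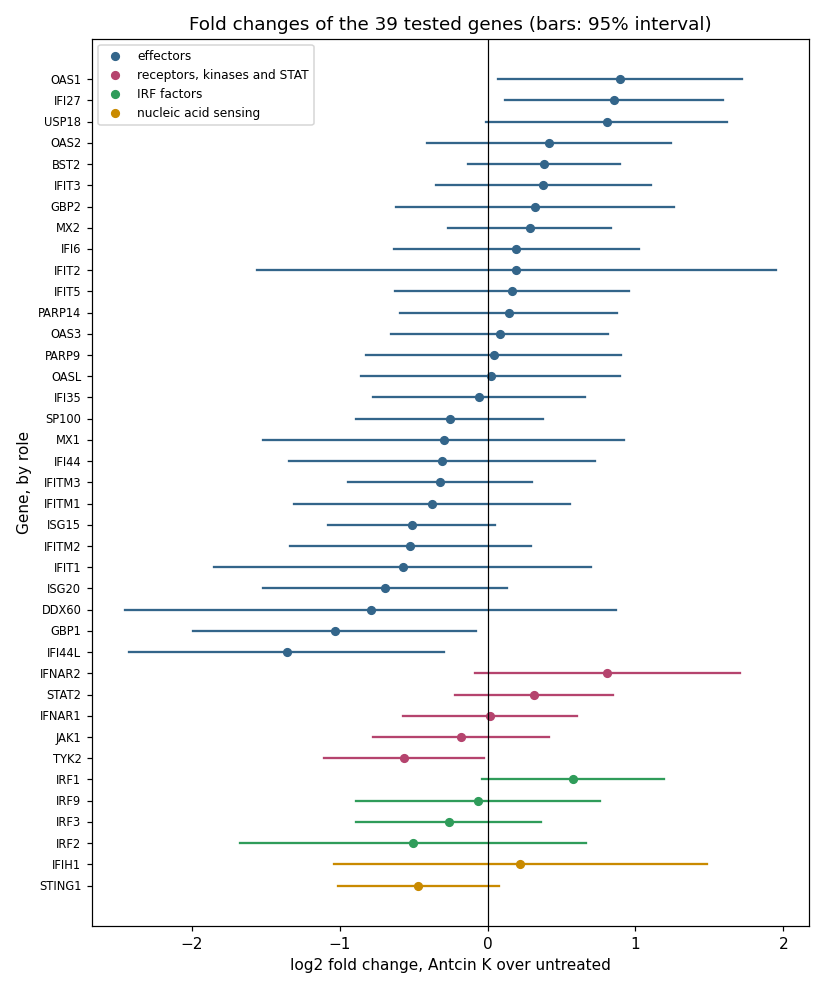
Log2 fold change of Antcin K over untreated for the 39 tested genes, coloured by role, with bars for the 95% interval of the edgeR fit (n = 2 per group). Points lie on either side of 0 in each role, and the intervals of IFI44L, GBP1, TYK2, OAS1 and IFI27 do not reach 0 before adjustment over all genes.

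The groups did not overlap for 19 of the 39 genes. In 10 of these (25.6%) both Antcin K libraries lay above both untreated libraries, against 22.6% of all tested genes, and in 9 (23.1%) both lay below, against 23.3%. Those above were IFIT3, IFIT5, MX2, OAS1, IFI27, BST2, USP18, IFNAR2, STAT2 and IRF1. Those below were ISG15, ISG20, IFI44, IFI44L, IFITM3, GBP1, SP100, TYK2 and STING1. The shares were near those of all genes. Genes that hold the same promoter element stood on both sides, and whether the element bears on the direction was not tested.

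Among the effector genes, IFI44L (ENSG00000137959, chromosome 1, 78619902 to 78646145, plus strand, hg38) had the lowest p. It had 87 and 37 counts in the untreated pair, and 28 and 13 in the treated pair, or 3.27 and 2.07 against 1.30 and 0.777 CPM. Both treated libraries were lower, with a log2 fold change of -1.36 (standard error 0.47, edgeR adjusted p = 0.369). GBP1, a guanylate-binding protein gene known as a target of interferon gamma, measured 3.54 and 2.91 CPM in the untreated pair, and 1.99 and 1.14 CPM in the treated pair. Its log2 fold change was -1.03 (standard error 0.42, edgeR adjusted p = 0.388), or -0.65 without Antcin K replicate 2. GBP1 belongs to a family of similar copies, and how reads with several alignments were counted is not given in the sources used here. The exonuclease gene ISG20 measured 3.35 and 4.20 CPM in the untreated pair, and 2.55 and 2.09 CPM in the treated pair (log2 fold change -0.69, standard error 0.36, adjusted p = 0.458). ISG15, at much higher counts, measured 207 and 237 CPM in the untreated pair, and 162 and 149 CPM in the treated pair. This was 222 ± 21.6 against 156 ± 8.82 CPM (SD, n = 2), or 1.43-fold lower, with a log2 fold change of -0.51 (standard error 0.25, adjusted p = 0.436).

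On the higher side, IFI27, an interferon-inducible small membrane protein gene, measured 3.84 and 5.54 CPM in the untreated pair, and 8.99 and 7.89 CPM in the treated pair. Its log2 fold change was 0.85 (standard error 0.32, edgeR adjusted p = 0.377). OAS1 measured 3.88 and 7.11 CPM in the untreated pair, and 9.08 and 11.2 CPM in the treated pair (log2 fold change 0.89, standard error 0.36, adjusted p = 0.388). The gap between its untreated libraries was larger than that between the nearest values of the groups, and leaving out untreated replicate 1 gave a log2 fold change of 0.52, and leaving out untreated replicate 2 one of 1.40. USP18, the gene of the protease that removes ISG15 and dampens receptor signalling, measured 5.46 and 10.9 CPM in the untreated pair, and 14.4 and 14.0 CPM in the treated pair. Its log2 fold change was 0.80 (standard error 0.36, adjusted p = 0.410), or 0.39 without untreated replicate 1 and 1.39 when untreated replicate 2 was left out, and USP18 has a near-identical copy that could share its reads. BST2, the tetherin gene, whose product holds budding virus at the cell surface, measured 47.8 and 45.9 CPM in the untreated pair, and 58.5 and 63.6 CPM in the treated pair. Its groups lay apart, at 46.9 ± 1.36 and 61.1 ± 3.63 CPM (SD, n = 2), with a log2 fold change of 0.38 (standard error 0.23, adjusted p = 0.504).

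**Figure D3:**
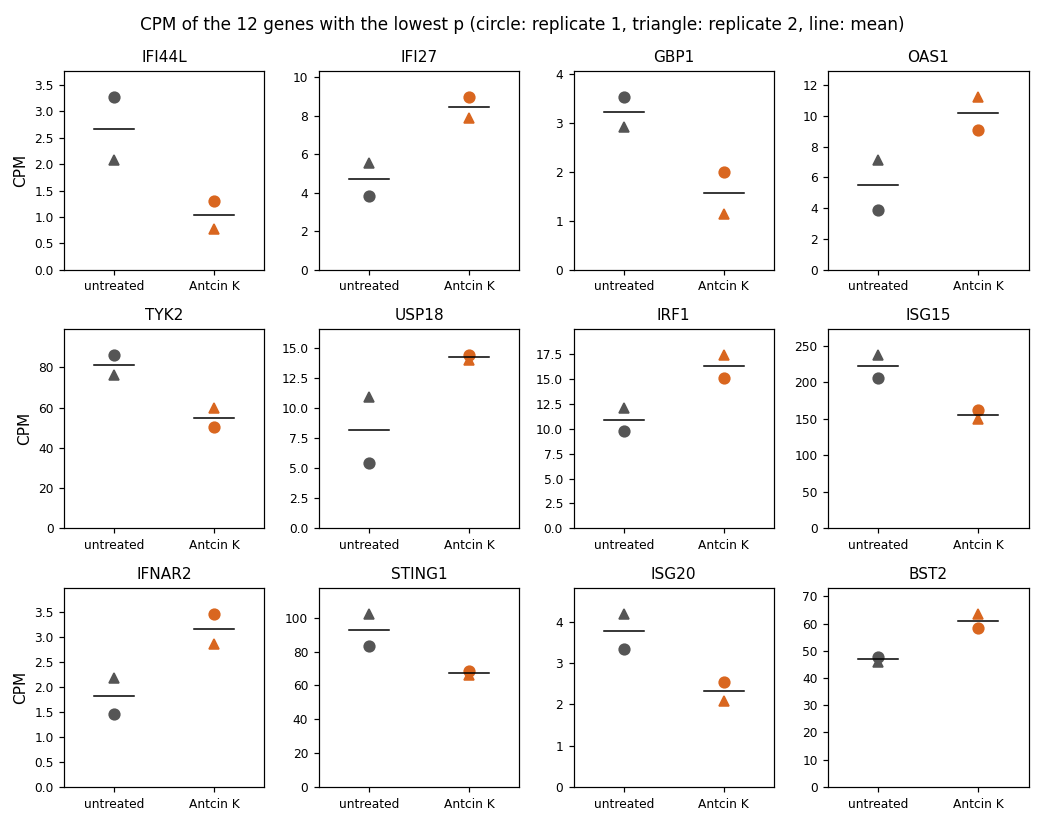
CPM in each library for the 12 members with the lowest p, from an axis starting at 0, with circles for replicate 1, triangles for replicate 2 and lines for group means. In each of the 12 panels the untreated and Antcin K libraries do not overlap, with 6 genes lower and 6 higher after Antcin K.

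Among the receptor, kinase and STAT genes edgeR called 0 of 5. TYK2, a receptor-bound kinase gene (ENSG00000105397, chromosome 19, 10350533 to 10380608, minus strand), measured 86.1 and 76.3 CPM in the untreated pair, and 50.2 and 59.6 CPM in the treated pair. This was 81.2 ± 6.93 against 54.9 ± 6.66 CPM (SD, n = 2), a log2 fold change of -0.56 (standard error 0.24, edgeR adjusted p = 0.395). The other receptor kinase gene, JAK1, measured 221 and 169 CPM in the untreated pair, and 164 and 180 CPM in the treated pair, so its groups overlapped. IFNAR2 measured 1.47 and 2.18 CPM in the untreated pair, and 3.47 and 2.87 CPM in the treated pair (log2 fold change 0.81, standard error 0.39, adjusted p = 0.436). It has 201 counts over the 4 libraries and overlaps a transcript that reads through to IL10RB on the same strand, so reads of the shared exons cannot be assigned with certainty. IFNAR1, the other chain, measured 18.0 and 14.3 CPM in the untreated pair, and 16.6 and 16.2 CPM in the treated pair (log2 fold change 0.02). STAT2 had a log2 fold change of 0.31 and an adjusted p = 0.595.

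Of the 4 tested IRF genes, IRF1, an activator induced by interferon gamma, was the 1 with a higher mean. It measured 9.75 and 12.1 CPM in the untreated pair, and 15.1 and 17.4 CPM in the treated pair (log2 fold change 0.58, standard error 0.27, edgeR adjusted p = 0.425). IRF3 measured 186 and 265 CPM in the untreated pair, and 195 and 181 CPM in the treated pair, so the groups overlapped, and it overlaps BCL2L12 on the opposite strand. IRF2 and IRF9 overlapped between groups as well. In nucleic acid sensing, STING1 (ENSG00000184584, chromosome 5, 139475533 to 139482935, minus strand) measured 83.6 and 102 CPM in the untreated pair, and 68.5 and 65.8 CPM in the treated pair. Both treated libraries were lower, at 67.2 ± 1.85 against 93.0 ± 13.3 CPM (SD, n = 2), with a log2 fold change of -0.47 (standard error 0.24, adjusted p = 0.451), or -0.30 without untreated replicate 2. The RNA sensor gene IFIH1 had 33, 13, 33 and 13 counts in untreated replicates 1 and 2 and Antcin K replicates 1 and 2, and its groups overlapped.

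Calls among the members appeared once an untreated library was left out, and also in a fit with crossed replicate numbers as a block, described at the end. Without untreated replicate 2, edgeR called 10 of the 39 members, with 25.2% of all genes called, so the members' share lay near the background. The 10 were IFI27, OAS1, USP18, IFNAR2 and IRF1, each with a higher mean, and IFI44L, GBP1, TYK2, IFITM1 and IFITM2, each with a lower mean. Without untreated replicate 1 it called 3 of 38 members, ISG15, STING1 and IRF3, each with a lower mean, with 9.38% of all genes called. The named members differed between these fits. The share of all genes called in both was not computed, so this difference is no result about the members. Each fit leaves 1 untreated library, which is then assumed to vary like the other group. With either Antcin K library left out no member was called, but almost none of all genes were called either. Such a fit leaves 1 treated library, so this is no result about the members.

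The IFITM genes, which lie side by side on chromosome 11 and encode similar proteins, showed how the libraries of a group differed. How reads with several alignments were counted is not given, so reads could be shared among these copies. IFITM1 stood at 186 and 86.5 CPM in untreated replicates 1 and 2 and at 75.6 and 135 CPM in Antcin K replicates 1 and 2. IFITM2 stood at 189, 105, 78.0 and 126 CPM in the same order. In both genes untreated replicate 1 was highest and Antcin K replicate 2 next, as in the mitochondrial share of the libraries (26.0% and 19.3%). Whether that share plays a part in this pattern was not tested. With mitochondrially encoded genes removed before the fit, the log2 fold changes of IFITM1 and IFITM2 were -0.34 and -0.49 (-0.37 and -0.52 with them kept). The log2 fold change of IFITM1 was -0.37, and it was 0.29 without untreated replicate 1 and -0.81 without untreated replicate 2. IFITM3 differed from its neighbours, with 555 and 559 CPM in the untreated pair, and 432 and 462 CPM in the treated pair. Its replicates lay close together, and its log2 fold change was -0.32 (edgeR adjusted p = 0.644), or between -0.32 and -0.24 with each library left out. Untreated replicate 1 was the highest library for 16 of the 39 members (41.0%), against 32.9% of all tested genes.

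**Figure D4:**
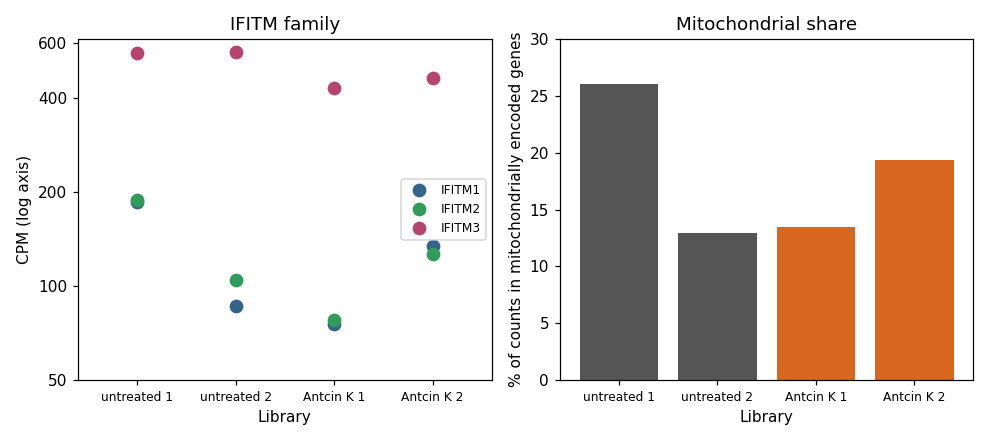
Left, CPM on a log axis of IFITM1, IFITM2 and IFITM3 in each library; right, the percent of counts from mitochondrially encoded genes in the same libraries, as bars from 0. IFITM1 and IFITM2 are highest in untreated replicate 1 and next in Antcin K replicate 2, the libraries with mitochondrial shares of 26.0% and 19.3%, while IFITM3 stays between 432 and 559 CPM.

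Further genes of the pathway were examined from a list of 72. Of these, 47 were tested, 23 with a higher and 24 with a lower mean (median log2 fold change -0.002), and edgeR called 0, with 6 (12.8%) at an unadjusted p under 0.05, against 12.4% of all genes, while DESeq2 called 0 of the 44 to which it gave an adjusted p. The nuclear DNA sensor gene IFI16 measured 15.8 and 9.80 CPM in the untreated pair, and 5.56 and 6.51 CPM in the treated pair (log2 fold change -1.09, edgeR adjusted p = 0.366, or -0.70 without untreated replicate 1). The IRF3 kinase gene IKBKE was lower in both treated libraries, with 30.7 and 47.2 CPM in the untreated pair, and 23.8 and 20.4 CPM in the treated pair. Its log2 fold change was -0.82 (edgeR adjusted p = 0.369), or -0.46 without untreated replicate 2. Of the 47 tested genes of the list, 16 lay above in both treated libraries (34.0%, against 22.6% of all genes). Another 10 lay below (21.3%, against 23.3%), and 21 overlapped. Among the 21 tested genes listed as other interferon-stimulated genes, 8 lay above (38.1%) and 2 below (9.52%). Whether these shares differ from those of all genes was not tested. Of the 13 tested sensing adaptor and kinase genes in the list, 3 lay below in both treated libraries (23.1%, against 23.3% of all genes). Another 3 lay above (23.1%, against 22.6%), and 7 overlapped between groups. GBP3, a relative of GBP1, had 37 and 19 counts in the untreated pair, and 10 and 1 in the treated pair (log2 fold change -2.13), which became -4.21 without Antcin K replicate 1 and -1.36 without Antcin K replicate 2. On the higher side, IFNGR2, a chain of the interferon gamma receptor, measured 10.4 and 10.5 CPM in the untreated pair, and 16.4 and 16.7 CPM in the treated pair (log2 fold change 0.66, standard error 0.25, adjusted p = 0.377). IL10RB, a chain of the interferon lambda receptor, had a log2 fold change of 0.95 (0.50 and 1.58 without untreated replicates 1 and 2), the phospholipid scramblase gene PLSCR1 one of 0.53 and the ubiquitin ligase gene TRIM21 one of 0.74. TRIM21 had 29.8 and 71.3 CPM in the untreated libraries, and with all libraries kept its edgeR adjusted p was 0.458. Its log2 fold change went to 0.25 on leaving out untreated replicate 1, and to 1.52 on leaving out untreated replicate 2. With untreated replicate 2 left out edgeR called 10 of 48 further pathway genes (20.8%, against 25.2% of all genes), and with untreated replicate 1 left out it called 5 of 48 (10.4%, against 9.38%).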

How the data were processed

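The members and gene lists were chosen with earlier results of these data known. Read processing used cutadapt 1.9.1, then HISAT2 2.2.1 and HTSeq 0.6.1, on hg38, per the submitters' processing notes. Strandedness, the treatment of multi-mapping reads and the release of the annotation were not given in the sources used here. The deposited file gives whole-number counts for every Ensembl gene and library. It also gives FPKM, computed by the authors from exonic length and library total. FPKM recomputed from the counts differed by at most 0.005.

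TMM scaling and edgeR 4.0.16 (R 4.3.3, robust quasi-likelihood, group as the only term) were applied to the counts of the 14717 genes passing filterByExpr (minimum count 10), with Benjamini-Hochberg adjustment over all of them. Standard errors came from the fitted model's information matrix. Alternatives were DESeq2 1.42.0, limma 3.58.1, other scalings and filters, log2(FPKM + 1) and log2(FPKM + 0.1), a replicate block, removal of mitochondrial genes and leaving out each library. Full statistics are given for the 12 members with the lowest p, and values for the 4 further pathway genes per direction that ranked first by p. A pathway gene that this rule would name is not reported here. All other members described singly were picked after their values were seen, and the ranges over fits with a library left out are given for those whose sign changed. Promoter windows were matched by symbol to RefSeq (GRCh38.p14).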

Additional observations from a re-analysis of the deposited data

How the results depend on the processing

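Across all genes edgeR called 0, against 208 without the count filter, 53 by DESeq2 and 3 to 3971 with a library left out. Members called were 0 in the main analysis and 0 to 10 with a library left out, and further pathway genes 0 to 10. The counts of members with a higher mean stayed between 18 and 23 with a library left out, and their median log2 fold change between -0.13 and 0.19. Of the 39 tested members, 23 kept their sign in each fit with a library left out. The 16 others ranged from -0.44 to 0.47 (IFI35), -0.14 to 0.66 (IFI6), -0.33 to 0.69 (IFIH1), -1.08 to 0.35 (IFIT1), -0.38 to 1.51 (IFIT2), -0.81 to 0.29 (IFITM1), -0.13 to 0.20 (IFNAR1), -1.09 to 0.16 (IRF2), -0.49 to 0.024 (IRF3), -0.44 to 0.28 (IRF9), -0.35 to 0.029 (JAK1), -0.74 to 0.27 (MX1), -0.24 to 0.52 (OAS3), -0.41 to 0.63 (OASL), -0.051 to 0.38 (PARP14) and -0.32 to 0.58 (PARP9). DDX60 did not pass the filter without untreated replicate 1. In the other alternatives IFI35 was the 1 member to change sign, from -0.06 to 0.003 with library totals, 0.009 with voom, 0.054 with log2(FPKM + 1) and 0.058 with log2(FPKM + 0.1), and the cause was not tested. With the replicate number as a block IFI35 had 0.008 and edgeR called 26 genes (0.177%) and 0 of the 39 members. The labels do not say that the numbers pair the samples, and same-numbered libraries deviated in opposite ways (r = -0.324 across genes). With the numbers crossed as a block, chosen after seeing the data, edgeR called 1430 genes (9.72%), 4 members (10.3%) and 7 further pathway genes (14.9%). The 4 members were OAS1, IFI27 and USP18, each with a higher mean, and IFI44L, with a lower mean. The members' share lay near that of all genes, and IFI35 had 0.006 in this fit. Depth limits the 6 untested members most, and IFIT2 and DDX60, whose log2 fold changes had standard errors of 0.77 and 0.73.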
